A study of Mus musculus with 12 samples.

Results

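The R-spondins, their LGR receptors and the membrane ligases ZNRF3 and RNF43 form a control point for WNT signalling, and their genes were followed here through 6 cell populations of mouse back skin. The members were all 9 rows of a 19150-gene expression table with the symbols Rspo1, Rspo2, Rspo3, Rspo4, Lgr4, Lgr5, Lgr6, Znrf3 and Rnf43, and each symbol had 1 row. The populations were sorted by flow cytometry from CD1 mice at postnatal day 5, when the first follicles are growing. The mesenchymal ones were dermal papilla, dermal sheath and dermal fibroblasts, the epithelial ones outer root sheath and matrix, and melanocytes made the sixth, with 2 libraries each and 12 in all. The labels give no treatment, mutation or transgene for any of them, and the gates and surface markers of the sort are not given in the sources used here. No label says whether paired libraries stem from different animals or from pools of animals. The p-values rest on the spread between paired libraries, pooled over all 6 populations in the main fit, and that spread could be technical.

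R-spondins are secreted proteins that bind an LGR receptor together with ZNRF3 or RNF43. These ligases mark frizzled WNT receptors for removal from the cell surface, and R-spondin binding clears the ligases instead, so that more frizzled stays and a WNT signal is amplified. Znrf3 and Rnf43 are themselves known WNT targets and act as negative feedback, and Lgr5 is a known WNT target and a marker of stem cells in the follicle and the intestine. In the hair follicle, the dermal papilla is the cluster of mesenchymal cells at the base, the dermal sheath is the contractile mesenchymal layer around the follicle, the outer root sheath is its outer epithelial layer, and the matrix is the proliferating epithelium that wraps the papilla and makes the shaft.

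On genome build mm10 the 9 genes lie at separate loci. Rspo1 spans chr4:124986430-125009099 (plus strand), Rspo2 chr15:43020794-43170826 (minus), Rspo3 chr10:29452416-29535867 (minus) and Rspo4 chr2:151842927-151874668 (plus). Lgr4 spans chr2:109917647-110014257 (plus), Lgr5 chr10:115450311-115587780 (minus) and Lgr6 chr1:134983301-135105276 (minus). Znrf3 spans chr11:5276324-5444847 (minus) and Rnf43 chr11:87662722-87735539 (plus). GENCODE M21 annotates the antisense genes Gm12930 over an exon of Rspo1 and Gm48159 over an exon of Rspo3. The amplification kit named in the labels does not mark strand, so strand cannot assign reads within the shared stretches to Rspo1 or Rspo3 or to these partners.

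The 250 bases before the transcription start are shown for 2 ligands and 2 receptors, as examples of a ligand set that was highest in papilla and of receptors that were highest in outer root sheath. The sequences are from RefSeq on GRCm38.p6, whose table holds promoters for 5 of the 9 members (Rspo1, Rspo4, Lgr4, Lgr6 and Rnf43). Rspo4 is chr2:151842677-151842926 and Rspo1 is chr4:124986180-124986429, both on the plus strand. Lgr4 is chr2:109917397-109917646 on the plus strand and Lgr6 is chr1:135105277-135105526 on the minus strand. Each is written 5′ to 3′ with the start site just after its last base, and capitals mark a match to one of the motifs searched.
Rspo4: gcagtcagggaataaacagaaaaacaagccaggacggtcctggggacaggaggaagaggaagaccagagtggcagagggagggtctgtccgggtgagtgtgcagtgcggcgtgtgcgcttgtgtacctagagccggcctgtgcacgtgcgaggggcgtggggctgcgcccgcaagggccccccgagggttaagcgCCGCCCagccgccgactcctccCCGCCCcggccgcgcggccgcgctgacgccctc
Rspo1: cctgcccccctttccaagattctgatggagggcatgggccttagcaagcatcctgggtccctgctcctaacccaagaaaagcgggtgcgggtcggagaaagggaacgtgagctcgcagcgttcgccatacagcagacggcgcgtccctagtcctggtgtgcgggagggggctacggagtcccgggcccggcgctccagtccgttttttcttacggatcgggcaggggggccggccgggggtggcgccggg
Lgr4: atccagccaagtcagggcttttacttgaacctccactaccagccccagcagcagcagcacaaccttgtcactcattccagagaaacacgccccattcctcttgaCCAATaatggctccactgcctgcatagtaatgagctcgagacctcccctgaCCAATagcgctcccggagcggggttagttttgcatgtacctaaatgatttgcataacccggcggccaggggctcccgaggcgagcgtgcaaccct
Lgr6: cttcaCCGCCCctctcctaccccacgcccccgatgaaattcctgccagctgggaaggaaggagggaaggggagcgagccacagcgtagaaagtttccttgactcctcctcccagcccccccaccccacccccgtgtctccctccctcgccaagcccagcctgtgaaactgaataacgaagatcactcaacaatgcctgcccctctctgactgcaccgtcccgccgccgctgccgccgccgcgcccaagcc
Both strands were searched for the TCF/LEF core CTTTGA, the GC box GGGCGG, the TATA box TATAAA and CCAAT. The Rspo4 window held 2 GC boxes and the Lgr6 window 1, in each case read on the opposite strand as CCGCCC, and the Lgr4 window held 2 CCAAT boxes. The Rspo1 window and the 2 Rnf43 windows held no match, and neither CTTTGA nor TATAAA was found in any of these windows. Among all 32851 promoter windows of this length, 13.8% held CTTTGA, 32.7% GGGCGG, 12.4% TATAAA and 33.8% CCAAT. The GC content was 69.6% for Rspo4, 66.8% for Rspo1, 55.6% for Lgr4 and 65.2% for Lgr6, against a median of 52.4% over all windows. A match describes letters in these windows and says nothing of which factor binds there.

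Expression was deposited as FPKM, fragment counts scaled to transcript length and library size, and levels of different genes are set side by side on that scale. Whether amplification of the RNA copied all genes equally was not tested. Sums and shares over genes therefore describe FPKM. The 12 columns summed to between 373066 and 524040 FPKM, and between 10951 and 12413 genes reached 1 FPKM in a library. Differences between populations are on the log2(FPKM + 1) scale, which understates the change of genes near or under 1 FPKM. Folds between populations are ratios on that scale, of FPKM + 1, whereas folds between paired libraries of a population are ratios of FPKM. A difference was called where the limma adjusted p was under 0.05 and the log2 difference was at least 1 in size, among 13974 genes that reached 1 FPKM in 2 or more libraries. All 9 members passed that filter, and each is described below whatever its result. The sorted populations were checked against marker lists. Papilla markers (12 genes) summed to 8074 and 6298 FPKM in papilla libraries and to at most 703 FPKM elsewhere, and sheath markers (8 genes) summed to 1849 and 2567 FPKM in sheath libraries and to at most 171 FPKM elsewhere. Fibroblast markers (9 genes) summed to 8568 and 6793 FPKM in fibroblast libraries and to 6942 and 5344 FPKM in sheath libraries. The fibroblast libraries also held all 10 melanocyte markers, which summed to 8101 and 7565 FPKM there, against 17881 and 14870 FPKM in melanocytes and 22.3 to 108 FPKM in the other libraries. By the median marker, that was 44.3% and 36.2% of the melanocyte level. The fibroblast values of the 9 members are therefore given beside the melanocyte values and were recomputed with that share of the melanocyte profile subtracted. What remained was not scaled up for the part removed. The subtraction could therefore hardly move genes with little RNA in melanocytes, such as Rspo1 and Lgr5, and the effect of scaling up was not tested. Where the share exceeded the measured level, the value was put at the floor. Among the members this happened for Lgr4 and Znrf3 in the first fibroblast library. In bulk samples, fewer cells that express a gene and less RNA per cell cannot be told apart.

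The papilla was the population richest in R-spondin RNA, and all 4 ligands were highest there in both libraries. How many of all tested genes were highest in both papilla libraries was not counted. The shares called in each comparison are given below. Summed over Rspo1 to Rspo4, papilla libraries held 1148 and 1204 FPKM. The sum was 98.6 and 123 FPKM in sheath libraries and 97.3 and 91.9 FPKM in fibroblast libraries. Outer root sheath libraries held 2.63 and 2.06 FPKM, matrix libraries 1.20 and 0.656 FPKM, and melanocyte libraries 1.84 and 1.15 FPKM. The 6 dermal libraries did not overlap with the 6 others, and the papilla did not overlap with the other dermal libraries. Receptors and ligases showed other orders: LGR RNA was highest in the outer root sheath and ligase RNA in the matrix, but neither fell near 0 in any population.

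**Figure D1:**
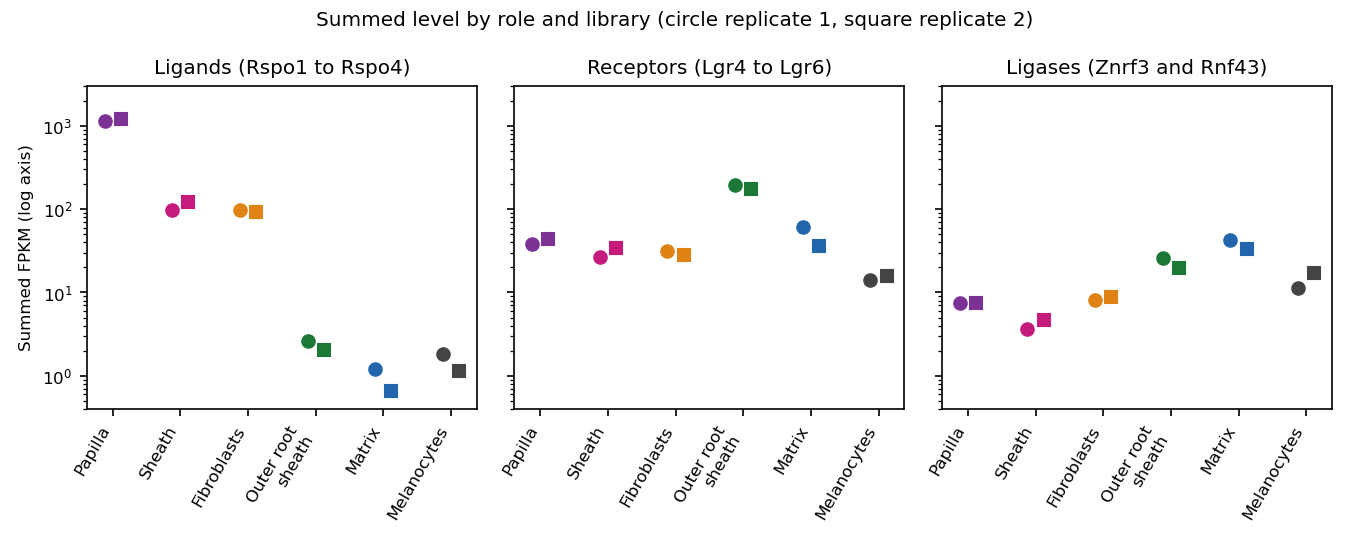
Summed FPKM (log axis) of the ligand genes Rspo1 to Rspo4, the receptor genes Lgr4 to Lgr6 and the ligase genes Znrf3 and Rnf43 in each of the 12 libraries (circle replicate 1, square replicate 2). Ligand sums run between 0.656 FPKM in a matrix library and 1204 FPKM in a papilla library, whereas receptor sums stay between 14.2 and 196 FPKM and ligase sums between 3.67 and 42.1 FPKM.

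Rspo3, an R-spondin also known for its part in vessel and placenta development, had the highest level of the family in papilla. It reached 435 and 614 FPKM in papilla, 33.1 and 70.8 FPKM in sheath and 13.3 and 22.7 FPKM in fibroblasts. Outer root sheath (0.265 and 0.714 FPKM), matrix (1.15 and 0.112 FPKM) and melanocytes (1.28 and 0.775 FPKM) were near the floor. The 3 dermal populations formed 3 steps that did not overlap, and the other 3 populations lay between 0.112 and 1.28 FPKM. Papilla exceeded sheath 10.5-fold (log2 difference 3.39 ± 0.44, SE; adjusted p = 0.000249) and fibroblasts 28.15-fold (4.82 ± 0.44; adjusted p = 1.89e-05). The step between sheath and fibroblasts was 2.69-fold with an adjusted p of 0.0496, and it rested on single libraries. Leaving out the second sheath library gave 0.89 on the log2 scale (adjusted p = 0.327), and leaving out the first fibroblast library gave 1.06 (adjusted p = 0.297). The call was lost without any 1 library other than the first sheath library and the 2 matrix libraries, with adjusted p between 0.0557 and 0.327. It was also lost with a pseudocount of 0.1 FPKM (0.281), no filter (0.0938), a filter of 1 library (0.0506), no intensity trend (0.0503) and a fit of only these populations (0.0587).

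Rspo4, the R-spondin whose human gene is mutated in people born without nails, fell away more steeply outside papilla. Papilla libraries held 325 and 301 FPKM, sheath libraries 5.44 and 4.30 FPKM and fibroblast libraries 2.87 and 4.33 FPKM. Outer root sheath held 0.495 and 0.103 FPKM and melanocytes 0 and 0.277 FPKM, and both matrix libraries list the gene at 0. The papilla libraries stood above all others, and sheath and fibroblasts overlapped, with a log2 difference between those 2 of 0.36 ± 0.29 (SE; adjusted p = 0.534). Against fibroblasts, papilla was 69.1-fold higher (6.11 ± 0.29; adjusted p = 3.86e-07), the counterpart of a 53.7-fold difference against sheath. Rspo4 also had the closest agreement of the ligands between the papilla libraries, with an SD of 0.08 on the log2 scale, against 0.45 for Rspo1.

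Rspo1, the family member known for its role in ovary determination, had the broadest dermal pattern. It was at 317 and 203 FPKM in papilla, 56.2 and 42.2 FPKM in sheath and 81.1 and 64.6 FPKM in fibroblasts. Levels in outer root sheath (1.87 and 0.962 FPKM), matrix (0 and 0.0754 FPKM) and melanocytes (0.502 and 0.0614 FPKM) were low. Papilla was highest, and sheath was the lowest of the dermal populations in both libraries, the reverse of the order of sheath and fibroblasts for Rspo3. The step between sheath and fibroblasts did not pass the test, at -0.56 ± 0.32 (SE; adjusted p = 0.331). Papilla exceeded sheath 5.12-fold (adjusted p = 0.000345) and fibroblasts 3.47-fold (adjusted p = 0.00224). With the melanocyte share subtracted from the fibroblast libraries, the difference between papilla and fibroblasts was 1.80 (adjusted p = 0.00348). Without scaling up the rest, that value could hardly move, because melanocytes held little Rspo1.

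Rspo2, a ligand known for limb and lung development and for coat variation in dogs, was the lowest of the family in papilla and the only one near 0 in fibroblasts. Papilla libraries held 70.8 and 85.7 FPKM and sheath libraries 3.92 and 5.28 FPKM. Fibroblasts held 0.106 and 0.255 FPKM, outer root sheath 0 and 0.285 FPKM, matrix 0.0541 and 0.469 FPKM, and melanocytes 0.0588 and 0.0318 FPKM. Papilla and sheath each stood clear of all other populations, and the remaining 4 lay between 0 and 0.469 FPKM. In FPKM + 1, papilla exceeded sheath 14.2-fold (3.83 ± 0.28, SE, adjusted p = 6.75e-06) and sheath exceeded fibroblasts 4.72-fold (2.24 ± 0.28, adjusted p = 0.000208). The second fold understates the ratio of the FPKM themselves, since the fibroblast levels were so low. With a pseudocount of 5 FPKM the difference between sheath and fibroblasts was 0.89 and was no longer called, and with 0.1 FPKM it was 4.11 (adjusted p = 0.00449). All 12 papilla markers reached 1 FPKM in both sheath libraries, where their sum was 597 and 703 FPKM, against 127 and 151 FPKM in fibroblasts. The part of papilla RNA in the sheath levels of Rspo2 and Rspo4 was not tested.

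The mix of ligands differed between the dermal populations. In papilla, Rspo3 made up 37.9% and 50.97% of the ligand sum, Rspo4 28.3% and 25.0%, Rspo1 27.6% and 16.9%, and Rspo2 6.17% and 7.12%. In fibroblasts, Rspo1 alone made up 83.3% and 70.3%, and Rspo3 13.6% and 24.8%. Sheath had Rspo1 at 57.0% and 34.4%, between the papilla and fibroblast shares, and Rspo3 at 33.5% and 57.8%, so the leading ligand was not the same in the 2 sheath libraries. In all 3 populations, the second library had more Rspo3 and less Rspo1 than the first. No test was run on these shares, which are descriptions of each library.

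**Figure D2:**
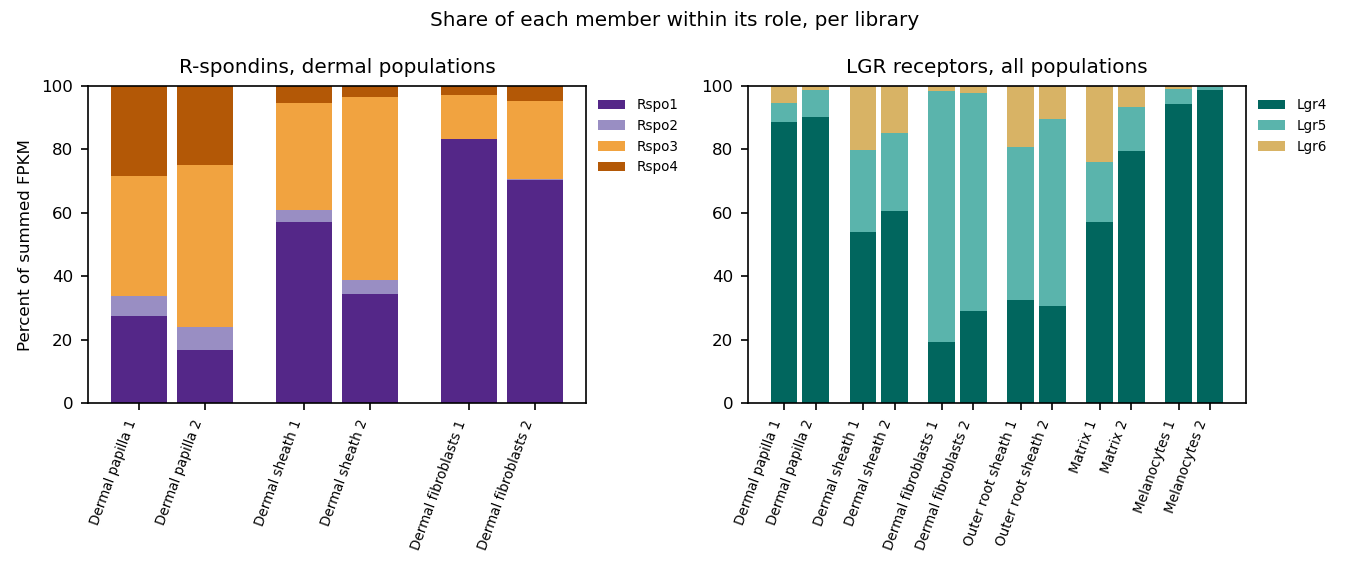
Percent of the summed FPKM of its role held by each R-spondin in the 6 dermal libraries (left) and by each LGR receptor in all 12 libraries (right). Rspo1 takes 83.3% and 70.3% of the ligand sum in fibroblasts but 27.6% and 16.9% in papilla, and the main receptor is Lgr4 in papilla (88.7% and 90.2%) and Lgr5 in fibroblasts (79.0% and 68.6%).

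Lgr4, the most widely expressed of the receptors in the body, was detected in every population. It stood at 63.9 and 52.7 FPKM in outer root sheath, 34.1 and 40.0 FPKM in papilla, and 34.8 and 29.0 FPKM in matrix. Sheath held 14.3 and 20.6 FPKM, melanocytes 13.4 and 15.4 FPKM, and fibroblasts 5.98 and 8.28 FPKM. The order ran down in small steps, and none of the 5 steps between neighbouring populations was called. Papilla and matrix overlapped, and their difference was 0.21 ± 0.26 on the log2 scale (SE; adjusted p = 0.527). Papilla exceeded sheath by 1.06 ± 0.26 (adjusted p = 0.0148). That call was lost without the first sheath library (0.81, adjusted p = 0.134) and without the second papilla library (0.95, adjusted p = 0.113), with a pseudocount of 5 FPKM (0.92), with median scaling (0.98) and with the melanocyte subtraction (1.06, adjusted p = 0.300). Papilla exceeded fibroblasts by 2.24 ± 0.26 (adjusted p = 0.000109), and with the melanocyte share subtracted from the fibroblast libraries the difference was 4.24. The share exceeded the measured Lgr4 level in the first fibroblast library, which was put at the floor. The Lgr4 results with this subtraction depend on that floor.

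Lgr5, the stem cell receptor, was highest in outer root sheath at 93.9 and 102 FPKM. Fibroblasts came next at 24.6 and 19.5 FPKM, ahead of matrix at 11.6 and 5.08 FPKM, sheath at 6.87 and 8.42 FPKM, papilla at 2.24 and 3.75 FPKM, and melanocytes at 0.651 and 0.221 FPKM. Outer root sheath and fibroblasts each stood apart from every other population, and matrix overlapped with sheath and differed 2.28-fold between its own libraries. The steps at outer root sheath over fibroblasts (2.11 ± 0.36, SE; adjusted p = 0.000815), fibroblasts over matrix (1.39 ± 0.36; adjusted p = 0.00890) and papilla over melanocytes (1.47 ± 0.36; adjusted p = 0.00769) were called. Within the dermis, Lgr5 was lowest in papilla, where the ligands were highest. Papilla was below fibroblasts by 2.55 ± 0.36 (adjusted p = 0.000493), and the value was -2.53 with the melanocyte share subtracted. Melanocytes held little Lgr5, so a subtraction without scaling up the rest could hardly move it. The outer root sheath markers (8 genes) summed to 226 and 158 FPKM in fibroblast libraries, 323 and 188 FPKM in papilla libraries and 227 and 164 FPKM in sheath libraries, against 4777 and 4655 FPKM in outer root sheath libraries. The part of outer root sheath RNA in the dermal levels of Lgr5 was not tested.

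Lgr6, a receptor known to mark stem cells above the follicle bulge, was the least abundant of the receptors in most populations. Outer root sheath held 37.7 and 18.0 FPKM, matrix 14.6 and 2.36 FPKM and sheath 5.34 and 5.03 FPKM. Papilla held 2.096 and 0.602 FPKM, fibroblasts 0.534 and 0.652 FPKM, and melanocytes 0.155 and 0 FPKM. Outer root sheath did not overlap with any other population, whereas the 2 matrix libraries lay 6.19-fold apart and on both sides of sheath. None of the 5 neighbouring steps was called. The first matrix library also held more outer root sheath marker RNA, 1862 FPKM against 1421 FPKM in the second, and the part of that RNA in the matrix level of Lgr6 was not tested. Within the dermis, sheath had the most Lgr6 in both libraries. Its excess over fibroblasts was 1.96 ± 0.61 (SE; adjusted p = 0.0534), and with the replicate number as a block the adjusted p was 0.0152. That SE draws on the spread in all populations, the matrix libraries included. The excess was also called in a fit of only these populations (adjusted p = 0.00283), with quantile normalization (0.0231) and with median scaling (0.0498). So it was with the melanocyte subtraction (0.0376) and a pseudocount of 0.1 FPKM (0.0469). It was not called with a pseudocount of 5 FPKM (0.86, adjusted p = 0.202), other filters or no intensity trend.

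The leading receptor differed between populations. Lgr4 made up 88.7% and 90.2% of the LGR sum in papilla, and 94.3% and 98.6% in melanocytes. It also led in matrix (57.0% and 79.6%) and sheath (54.0% and 60.5%), with the share in the first matrix library inside the range of the sheath libraries. Lgr5 led in fibroblasts at 79.0% and 68.6% and in outer root sheath at 48.0% and 59.0%. The sums themselves were 196 and 172 FPKM in outer root sheath, 60.9 and 36.4 FPKM in matrix, 38.5 and 44.4 FPKM in papilla, 26.5 and 34.1 FPKM in sheath, 31.1 and 28.4 FPKM in fibroblasts, and 14.2 and 15.7 FPKM in melanocytes. In this sum outer root sheath stood above all other libraries and melanocytes below them, and papilla overlapped with matrix as sheath did with fibroblasts.

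Znrf3, one of the ligases that remove frizzleds, was present everywhere and highest in matrix. Matrix held 26.5 and 20.7 FPKM, melanocytes 11.1 and 17.2 FPKM and outer root sheath 13.0 and 11.2 FPKM. Fibroblasts held 6.25 and 7.62 FPKM, papilla 7.05 and 6.65 FPKM and sheath 3.39 and 4.28 FPKM. The matrix libraries were above all others and the sheath libraries below all others. None of the 5 steps between neighbours was called, the largest being 0.72 ± 0.28 (SE) between outer root sheath and fibroblasts (adjusted p = 0.0571). Papilla and fibroblasts differed by -0.01 ± 0.28, and this value depends on the melanocyte RNA in the fibroblast libraries. With that share subtracted, papilla was higher by 2.07 (adjusted p = 0.0107). The share exceeded the measured Znrf3 level in the first fibroblast library, which was put at the floor. The size and call of this difference depend on that floor.

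Rnf43, the related ligase, was an epithelial gene in these libraries. It stood at 15.6 and 12.2 FPKM in matrix and 12.8 and 8.34 FPKM in outer root sheath. Fibroblasts held 1.93 and 1.11 FPKM, papilla 0.494 and 0.867 FPKM, sheath 0.283 and 0.334 FPKM, and melanocytes 0.117 and 0.0729 FPKM. The 2 epithelial populations overlapped with each other and with no other population, and the step down to fibroblasts was called at 2.19 ± 0.29 (SE; adjusted p = 0.000156). Melanocytes had Znrf3 at a level like that of outer root sheath and close to no Rnf43. Of the ligase sum, Rnf43 made up 37.1% and 37.0% in matrix and 49.6% and 42.8% in outer root sheath, but 6.55% and 11.5% in papilla.

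**Figure D3:**
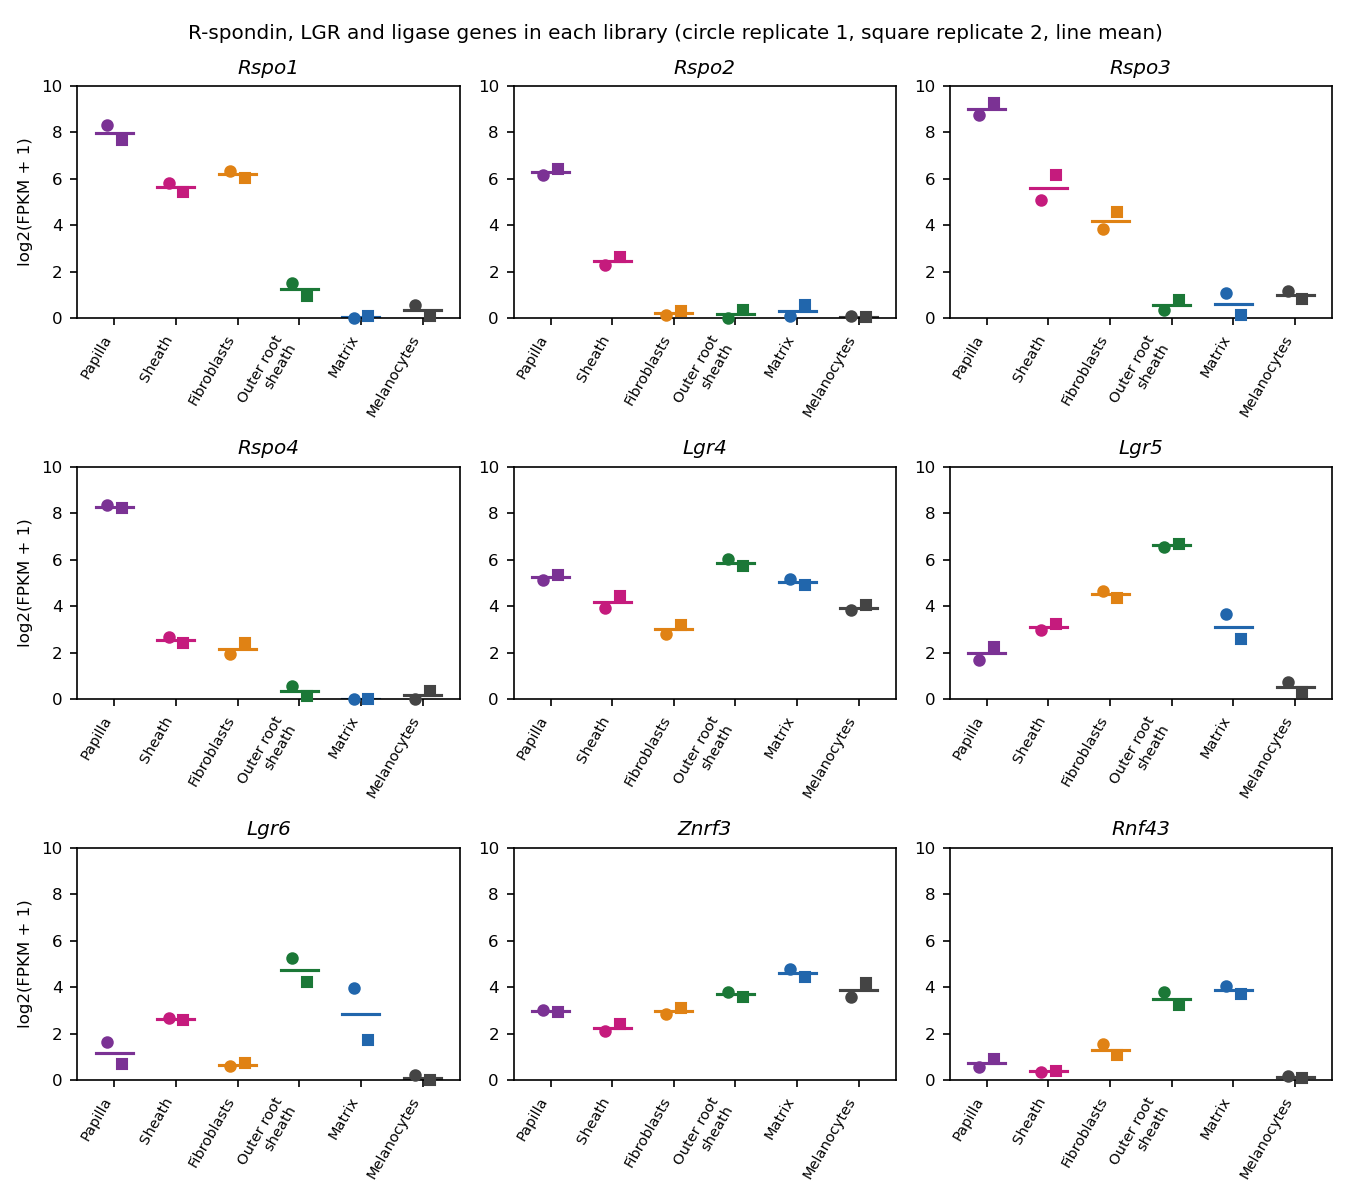
Level of each of the 9 genes as log2(FPKM + 1) in every library, by population (circle replicate 1, square replicate 2, line mean of the log2 values). The 4 R-spondins are highest in papilla (70.8 to 614 FPKM over genes and libraries), Lgr5 and Lgr6 in outer root sheath, and Znrf3 and Rnf43 in matrix.

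Across all members, 13 of the 45 steps between neighbouring populations were called. The 4 ligands gave 9 of these, Lgr5 gave 3 and Rnf43 gave 1. Of these 13 steps, 5 fell in the 2-population comparisons described below. The background of the others is the share of all tested genes called. Sheath over outer root sheath, the step called for Rspo1, had 20.3% called higher and 16.6% lower, and sheath over matrix, the step called for Rspo2, had 22.0% and 19.5%. Fibroblasts over outer root sheath had 18.9% called higher and 14.6% lower, and fibroblasts over matrix 20.4% and 16.6%. Fibroblasts over melanocytes, the step called for Rspo3, had 14.7% and 8.06%, and papilla over melanocytes, the step called for Lgr5, had 19.9% and 12.5%. In the comparisons where no step was called, the shares were 20.1% higher and 14.1% lower for papilla over outer root sheath, 19.5% and 15.0% for sheath over melanocytes, 14.2% and 12.9% for outer root sheath over melanocytes, and 14.1% and 14.5% for matrix over melanocytes.

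Papilla against sheath compares the signalling centre of the follicle with the neighbouring mesenchymal layer. All 4 R-spondins and Lgr4 were called higher in papilla, 5 of 9 members, and none was called lower. Among all tested genes 7.18% were called higher and 7.41% lower. The median log2 difference was 1.06 over the members and 0.09 over all tested genes. Lgr5 was at 2.24 and 3.75 FPKM in papilla, against 6.87 and 8.42 FPKM in sheath, without overlap (-1.13 ± 0.36, SE; adjusted p = 0.0548). Lgr6 also lay lower in papilla libraries than in sheath libraries (-1.47 ± 0.61; adjusted p = 0.145). With the replicate number as a block, both passed, with adjusted p = 0.0335 for Lgr5 and 0.0497 for Lgr6. Lgr5 also passed with quantile normalization (-1.42, adjusted p = 0.0128) and median scaling (-1.22, adjusted p = 0.0320). Lgr6 also passed in a fit of only these populations (adjusted p = 0.0251). Neither passed with a pseudocount of 0.1 or 5 FPKM.

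Papilla against fibroblasts gave 5 members called higher, again the 4 R-spondins and Lgr4, and 1 called lower, Lgr5. The shares over all tested genes were 7.50% higher and 6.68% lower, and this comparison uses the same papilla libraries as the one against sheath. The median log2 difference was 1.80 over the members and 0.05 over all tested genes. Rspo2 differed by 6.07 ± 0.28 (SE; adjusted p = 3.50e-07), a value that moved to 8.17 with a pseudocount of 0.1 FPKM and to 4.001 with 5 FPKM, since fibroblasts held under 0.3 FPKM. Rspo1 was no longer called with a pseudocount of 0.1 FPKM (1.81, adjusted p = 0.0750). Lgr6, Znrf3 and Rnf43 were not called, at 0.48, -0.01 and -0.58.

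Sheath against fibroblasts gave 4 called members, the fewest of the dermal comparisons. Rspo2, Rspo3 and Lgr4 were called higher in sheath, 3 of 9, and Lgr5 was called lower, 1 of 9, beside 7.07% higher and 6.37% lower over all tested genes. Their median log2 difference was 0.36, against -0.03 over all tested genes. Lgr4 was higher by 1.18 ± 0.26 (SE; adjusted p = 0.00855) and Lgr5 lower by 1.41 ± 0.36 (-1.41, adjusted p = 0.0205). Both calls depended on single libraries. Lgr4 was not called without the second sheath library (0.93, adjusted p = 0.0823) or the first fibroblast library (0.97, adjusted p = 0.0851), with a pseudocount of 5 FPKM (0.88) or in a fit of only these populations (adjusted p = 0.0535). Lgr5 was not called without any 1 of the 4 libraries compared, with values between -1.57 and -1.25 and adjusted p up to 0.136, nor with a pseudocount of 0.1 FPKM (adjusted p = 0.0711). The Lgr4 difference was 3.18 with the melanocyte share subtracted from the fibroblast libraries, a size that depends on the first of them being put at the floor.

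Papilla against matrix sets the mesenchymal centre beside the epithelium that wraps it, and here ligands and the other members split. All 4 R-spondins were called higher in papilla, where 22.3% of all tested genes were. Lgr5, Lgr6, Znrf3 and Rnf43 were called lower, where 16.5% of all tested genes were, and Lgr4 was not called. The largest of the ligand differences with a measurable level in both matrix libraries was 8.39 ± 0.44 for Rspo3 (SE; adjusted p = 1.77e-07), and its size depends on the pseudocount, with 9.97 at 0.1 FPKM and 6.54 at 5 FPKM. Rnf43 was lower in papilla by 3.15 ± 0.29 (-3.15, adjusted p = 8.39e-06), and Znrf3 by 1.64 ± 0.28 (-1.64, adjusted p = 0.000586). The receptor calls were fragile. Lgr5 (-1.16, adjusted p = 0.0213) was not called without the first matrix library (-0.63, adjusted p = 0.198) or the first papilla library (-0.88, adjusted p = 0.150), nor with a pseudocount of 5 FPKM (-0.70). Lgr6 (-1.70, adjusted p = 0.0396) was at -0.59 without the first matrix library (adjusted p = 0.366) and at -1.23 without the second papilla library (adjusted p = 0.220). The Lgr6 call was also lost when any 1 sheath or fibroblast library was left out (adjusted p 0.0501 to 0.0508), with no filter (0.0879), with the melanocyte subtraction (0.0621) and with a pseudocount of 5 FPKM (-0.93, adjusted p = 0.0747).

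Outer root sheath against matrix compares the 2 epithelial populations, and Lgr5 was the member that set them apart. It stood at 93.9 and 102 FPKM in outer root sheath, against 11.6 and 5.08 FPKM in matrix, an 11.3-fold difference (3.50 ± 0.36, SE; adjusted p = 0.000307). Rspo1 was the other of 2 members called higher, at 1.87 and 0.962 FPKM in outer root sheath against 0 and 0.0754 FPKM in matrix (1.19 ± 0.32; adjusted p = 0.0458). Over all tested genes, 4.59% were called higher and 2.51% lower, and no member was called lower. The Rspo1 call was lost when any 1 library other than a melanocyte library was left out (adjusted p 0.0508 to 0.274). Papilla markers summed to 224 and 157 FPKM in outer root sheath and to 138 and 112 FPKM in matrix, and the part of papilla RNA in this Rspo1 level was not tested. Lgr6 was higher in outer root sheath by 1.90 ± 0.61 (adjusted p = 0.0955). With the replicate number as a block it was called (adjusted p = 0.0265), as it was without the first matrix library (3.01, adjusted p = 0.00678). Lgr4 (0.85, adjusted p = 0.0767), Znrf3 (-0.91, adjusted p = 0.0795) and Rnf43 (-0.38, adjusted p = 0.579) did not pass.

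The mean of the 3 dermal populations set against the mean of the 2 epithelial populations called every member, with the 4 R-spondins higher in mesenchyme and the 3 receptors and both ligases lower. Among all tested genes 20.8% were called higher and 15.4% lower. Whether dermal and epithelial libraries were prepared and sequenced together is not given in the sources used here. The part of separate processing in these differences, and in papilla against matrix, was not tested. Rspo1 differed by 5.96 ± 0.21 (SE; adjusted p = 3.91e-09), Rspo3 by 5.69 ± 0.28, Rspo4 by 4.16 ± 0.19 and Rspo2 by 2.76 ± 0.18. Rnf43 was lowest relative to epithelium at -2.88 ± 0.19 (adjusted p = 2.68e-07), ahead of Lgr6 at -2.32 ± 0.39, Lgr5 at -1.68 ± 0.23, Znrf3 at -1.42 ± 0.18 and Lgr4 at -1.31 ± 0.17. All 9 remained called in each of the fits that left out 1 library. With the melanocyte share subtracted from the fibroblast libraries, Lgr4 was at -1.98 and Znrf3 at -2.11, both with the first fibroblast library at the floor. This mean hides the differences within each side: Lgr4 in papilla lay within the range of the epithelial libraries, and Lgr5 in fibroblasts lay above matrix. Rspo2 in fibroblasts overlapped with both epithelial populations. It differed by 0.06 against outer root sheath (adjusted p = 0.894) and -0.08 against matrix (adjusted p = 0.841), so its excess in mesenchyme came from papilla and sheath.

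**Figure D4:**
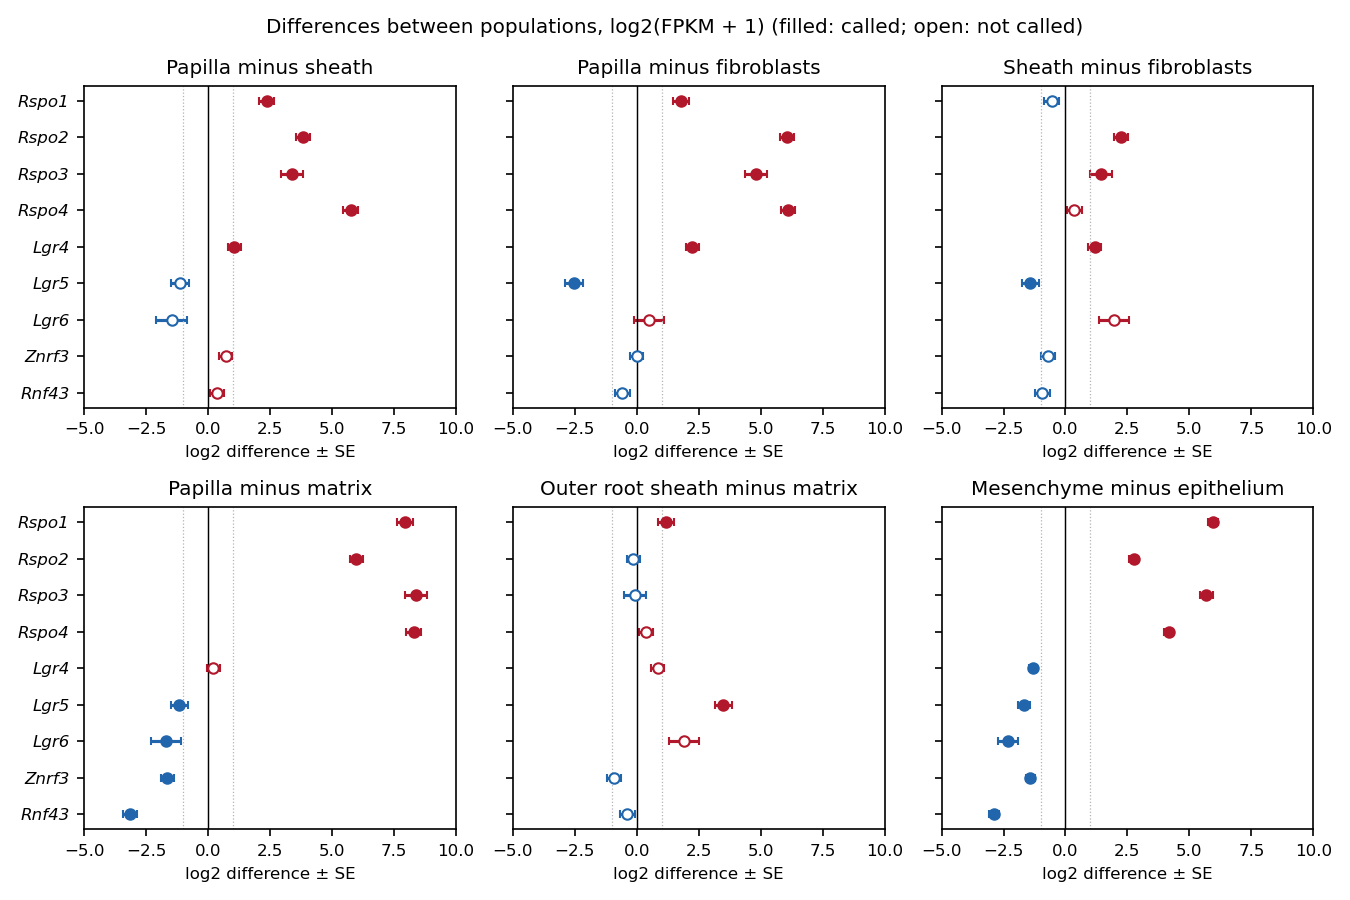
Log2 differences of the 9 genes with their SE in the 6 comparisons, on the log2(FPKM + 1) scale (filled points called, open points not called, dotted lines at a log2 difference of 1 in either direction). The R-spondins lie to the right in each comparison that has papilla first (1.80 to 8.39), and in the panel of mesenchyme against epithelium all receptors and ligases lie to the left (-2.88 to -1.31).

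The frizzleds, on which the ligases act, and their partners LRP5, LRP6 and dishevelled were followed as a list of 15 genes, of which 14 were tested. Against epithelium, mesenchyme had 4 of them lower and none higher, with a median of -0.38. Fzd5 was at 55.1 and 56.4 FPKM in outer root sheath and 54.6 and 55.3 FPKM in matrix, and at 1.67 to 3.36 FPKM over the 6 dermal libraries, a difference of -3.86 ± 0.19 (SE; adjusted p = 3.07e-08). Fzd6 (-2.59), Fzd7 (-2.08) and Fzd10 (-1.39) were the others. Fzd10 was the list's exception in papilla, at 21.3 and 14.4 FPKM there, against 1.37 and 1.97 FPKM in sheath (2.81 ± 0.38; adjusted p = 0.000375). Fzd4 went the other way, at 1.62 and 1.43 FPKM in papilla against 7.80 and 8.26 FPKM in sheath (-1.84 ± 0.32; adjusted p = 0.00183). These were the 2 called members of the list in that comparison. Papilla against fibroblasts called 2 higher and 1 lower, sheath against fibroblasts 2 and 1, papilla against matrix 1 and 3, and outer root sheath against matrix 1 and 1. Over all tested genes, 7.18% were called higher and 7.41% lower for papilla against sheath, and 7.50% and 6.68% for papilla against fibroblasts. The shares were 7.07% and 6.37% for sheath against fibroblasts and 22.3% and 16.5% for papilla against matrix. They were 4.59% and 2.51% for outer root sheath against matrix, and 20.8% and 15.4% for mesenchyme against epithelium.

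Of 19 WNT ligand genes, 14 were tested. Wnt10b, a ligand active in hair growth, was at 25.1 and 16.0 FPKM in matrix and at most 2.17 FPKM in any papilla or outer root sheath library. Papilla was below matrix by 3.35 ± 0.45 (-3.35, SE; adjusted p = 0.000121), as was outer root sheath (-3.75 ± 0.45; adjusted p = 0.000692). Papilla against matrix called 6 WNT ligands lower and 1, Wnt5b (3.00), higher, beside 16.5% and 22.3% of all tested genes. Outer root sheath against matrix called 5 lower and 2 higher, beside 2.51% and 4.59%. Wnt5a, a ligand known mainly for signalling without beta-catenin, was the most abundant in papilla at 88.7 and 121 FPKM, against 16.8 and 30.1 FPKM in sheath (2.15 ± 0.35; adjusted p = 0.00133). Wnt9a marked sheath, at 0.729 and 1.76 FPKM in papilla against 15.0 and 17.5 FPKM in sheath (-2.98 ± 0.29; adjusted p = 3.58e-05). Papilla against sheath called 2 ligands higher and 2 lower, papilla against fibroblasts 2 and 2, and sheath against fibroblasts 1 and 2. Over all tested genes, the shares in the same order were 7.18% and 7.41%, 7.50% and 6.68%, and 7.07% and 6.37%. Mesenchyme against epithelium called 1 higher and 5 lower, beside 20.8% and 15.4% of all tested genes.

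Known WNT target and feedback genes (15 listed, 13 tested) were mostly low in the sheath. Papilla against sheath called 9 of 13 higher and 2 lower, with a median of 2.33, beside 7.18% and 7.41% of all tested genes. Notum, a secreted enzyme that inactivates WNT proteins, was at 82.7 and 56.1 FPKM in papilla against 1.28 and 1.08 FPKM in sheath (4.99 ± 0.27, SE; adjusted p = 1.58e-06). Lef1, a nuclear effector of WNT signalling, was at 101 and 104 FPKM in papilla against 7.27 and 8.38 FPKM in sheath (3.55 ± 0.26; adjusted p = 6.75e-06). The WNT inhibitors Wif1 (3.88) and Apcdd1 (3.41) were also called. Sheath against fibroblasts called 9 of 13 lower and 1 higher, with a median of -1.57, beside 6.37% and 7.07% of all tested genes. Axin2, the general feedback target, was at 2.81 and 3.84 FPKM in sheath against 62.1 and 49.9 FPKM in fibroblasts (-3.72 ± 0.24; adjusted p = 2.03e-06). Tnfrsf19 (-4.18), Apcdd1 (-3.18) and Tcf7 (-3.00) were the others named by size. Melanocytes held 75.8 and 63.0 FPKM of Axin2, 112 and 112 FPKM of Tnfrsf19 and 77.2 and 73.6 FPKM of Tcf7, but 7.60 and 15.6 FPKM of Apcdd1, against 102 and 80.0 FPKM of Apcdd1 in fibroblasts. The part of melanocyte RNA in these fibroblast levels was not tested gene by gene.

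In the epithelium, outer root sheath against matrix called 9 of 13 target genes lower and none higher, with a median of -1.65. The shares over all tested genes were 2.51% lower and 4.59% higher. Lef1 was at 19.5 and 13.1 FPKM in outer root sheath against 105 and 115 FPKM in matrix (-2.71 ± 0.26, SE; adjusted p = 0.000240). Nkd2, an antagonist of dishevelled, was at 1.25 and 2.15 FPKM in outer root sheath against 23.6 and 40.9 FPKM in matrix (-3.59 ± 0.33; adjusted p = 0.000238). Among the members known as WNT targets, Znrf3 was higher in both matrix libraries without passing the test (-0.91), and Lgr5 was called the opposite way (3.50). Rnf43 was not called (-0.38, adjusted p = 0.579), and its libraries overlapped between the populations. Papilla against fibroblasts called 4 target genes higher and 4 lower, papilla against matrix 5 and 4, and mesenchyme against epithelium 4 and 1. Over all tested genes, the shares in the same order were 7.50% and 6.68%, 22.3% and 16.5%, and 20.8% and 15.4%.

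**Figure D5:**
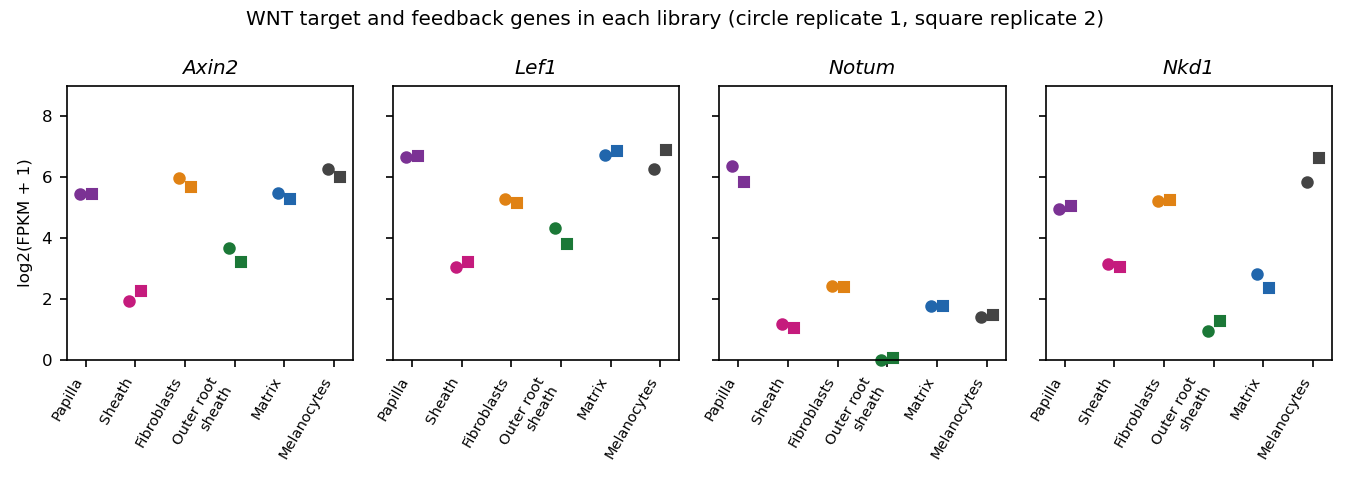
Axin2, Lef1, Notum and Nkd1, WNT target and feedback genes, as log2(FPKM + 1) in every library (circle replicate 1, square replicate 2). Axin2 is lowest in the 2 sheath libraries (2.81 and 3.84 FPKM), and Notum is highest in the 2 papilla libraries (82.7 and 56.1 FPKM).

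R-spondins also bind heparan sulphate, and 9 of 10 genes for syndecans and glypicans, the cell surface carriers of that sugar chain, were tested. Mesenchyme against epithelium called 4 higher and 2 lower, beside 20.8% and 15.4% of all tested genes. Gpc3 was at 138 and 164 FPKM in papilla, 339 and 409 FPKM in sheath and 198 and 239 FPKM in fibroblasts, against 9.06 and 6.66 FPKM in outer root sheath and 11.3 and 10.3 FPKM in matrix (4.51 ± 0.18, SE; adjusted p = 8.15e-09). Sdc3 (3.67) and Sdc2 (3.38) were higher in mesenchyme as well, and Sdc4 (-2.08) was lower. Papilla against sheath called 4 higher, Gpc6 most (2.97 ± 0.35; adjusted p = 0.000144), and Gpc3 lower (-1.30). Papilla against matrix called 5 higher and none lower, papilla against fibroblasts 1 and 1, sheath against fibroblasts 0 and 2, and outer root sheath against matrix 2 and 0. Over all tested genes, the shares in the same order were 22.3% and 16.5%, 7.50% and 6.68%, 7.07% and 6.37%, and 4.59% and 2.51%. For papilla against sheath they were 7.18% and 7.41%.

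For each member, the 3 genes with the most similar profile were found among 11287 genes that reached a mean of at least 5 FPKM in some population. Similarity was the mean absolute difference over the 12 libraries between log2(FPKM + 1) profiles, each centred on its own mean. Rspo2 was followed most closely by Snap91 (0.19), Trpm3 (0.26) and Dio2 (0.40), all highest in papilla. Rspo4 was followed by Gdf10 (0.46), Alpl (0.48) and the agouti gene, listed as a (0.50), Rspo3 by Gldn (0.49), Pappa2 (0.49) and Ebf1 (0.51), and Rspo1 by Twist1 (0.54), Islr (0.55) and Olfml3 (0.64). Alpl is one of the papilla markers used above. Among the members themselves, Rspo3 and Rspo4 lay 0.87 apart, as did Rspo2 and Rspo4. Each ligand had genes outside the family closer to it than any other ligand. With 11287 candidates and so few other ligands, that does not measure how alike the ligands are.

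Lgr5 was followed by Tnc (0.41), Arl4c (0.59) and A930009A15Rik (0.70), all highest in outer root sheath. A930009A15Rik lies within the span of Lgr5 on the opposite strand without touching an annotated Lgr5 exon, and since the kit does not mark strand, reads of unspliced Lgr5 transcripts and of this gene cannot be told apart. Lgr6 was followed by Lamb3 (0.42), Slc38a4 (0.43) and the shared entry BC024139,Eppk1 (0.46). Lgr4 was followed by Hrsp12 (0.32), Trp53i11 (0.35) and Rxra (0.35). The closest to Znrf3 were Helq (0.17), Atpaf1 (0.19) and Homer1 (0.20), and the closest to Rnf43 were Grb7 (0.21), Stmn1 (0.24) and Ap1m2 (0.25), each highest in matrix. A small value is easier to reach for a gene that varies little, so these values compare candidates for 1 member and not members with each other.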

How the data were processed

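The 12 libraries were bulk RNA-seq of sorted cells, 2 per population. Per the labels, RNA (Absolutely RNA Nanoprep, integrity number 8 or more) was amplified from 6 ng with Ovation RNA-seq V2, and 100 ng of the product went into Ovation Ultralow DR libraries. The authors deposited 1 FPKM column per library. The submitters' processing notes name TopHat2 2.0.3, Bowtie2, Cufflinks 2.1.1 and build mm10. Their roles, the annotation and any filter are not given in the sources used here.

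FPKM were taken as log2(FPKM + 1). Tests covered the 13974 genes that reached 1 FPKM in 2 or more libraries, and 5176 were left out. The model was fitted to all 6 populations together by limma 3.58.1 under R 4.3.3, whose prior variance followed mean expression, on 6 residual degrees of freedom. Two-sided p-values were adjusted by Benjamini-Hochberg over all tested genes of a comparison. The fit was tested on simulated data. The members, gene lists and marker lists were chosen with earlier results of these data known. Pathway genes are named by rule: up to 4 called genes per list and comparison with the largest difference, where the higher population averaged 5 FPKM or more.

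Labels number the libraries 1 and 2 in every population. Same-numbered libraries deviated together (r of deviations from population means 0.193 to 0.539 over 15 of 15 pairs of populations), so the block on replicate number is given beside results whose call it changes. Library depths are not given in the sources used here. Ratios of values under 0.1 FPKM fell on 1 step of 1% in 17.3% to 44.0% of genes between pairs of second libraries, against 1.23% to 10.3% for the 51 other pairs. By that step, relative to the second sheath library, depth was 0.980 in papilla, 1.16 in fibroblasts, 0.440 in outer root sheath, 0.399 in matrix and 0.492 in melanocytes. Levels of low genes are thus less precise in the last 3, and precision is otherwise given as the spread between libraries. The r of deviations was 0.485 to 0.539 between dermal populations and 0.193 to 0.319 in the other pairs. Depth and r thus both set the dermal libraries apart, and whether these were processed separately is not given in the sources used here. Alternatives were other pseudocounts, filters and scalings, no intensity trend, the replicate block, subtraction of the melanocyte profile from fibroblast libraries, fits of only the populations compared, and leaving out each library in turn.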

Additional observations from a re-analysis of the deposited data

How the results depend on the processing

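The 6 comparisons gave 54 member results, 34 of them called. Over 1182 recomputed values, 1096 kept direction and call, 57 lost the call, 20 gained it and 9 changed sign. Many of these settings could not change direction. For 2 populations, leaving out a library of another population kept the log2 difference as it was. So did other filters, no intensity trend, the replicate block and a fit of only the populations compared. Only the adjusted p could move there, so the total kept is no measure of how firm the directions are. The count of members called was 2 instead of 4 for sheath against fibroblasts with a pseudocount of 5 FPKM. It was 1 instead of 2 for outer root sheath against matrix with a pseudocount of 5 FPKM, no filter, quantile normalization, median scaling, the melanocyte subtraction and a fit of only these populations. Leaving out 1 library gave 4 to 7 members for papilla against sheath, 6 for papilla against fibroblasts, 1 to 5 for sheath against fibroblasts, 6 to 8 for papilla against matrix, 1 to 2 for outer root sheath against matrix, 9 for mesenchyme against epithelium and 11 to 16 neighbouring steps. The lone library left is assumed to vary like the other populations.

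Every change of sign was in a difference that was not called as reported, and 1 of the reversed values met the call rule, Znrf3 for papilla against fibroblasts with the melanocyte subtraction (adjusted p = 0.0107). Znrf3 moved to 2.07 for papilla against fibroblasts and to 1.37 for sheath against fibroblasts with the melanocyte subtraction. That subtraction put Znrf3 in the first fibroblast library at the floor, and both values depend on it. Without 1 library, the Znrf3 difference between papilla and fibroblasts ranged between -0.13 and 0.11. Between outer root sheath and matrix, Rspo2 ranged between -0.37 and 0.10 and Rspo3 between -0.54 and 0.41 without 1 library, and Rspo3 was 0.085 with a pseudocount of 0.1 FPKM. With the replicate block, 7, 6, 5, 8, 3 and 9 members were called in the 6 comparisons in the order of the report, and 16 neighbouring steps. It changed no member call beyond the 4 named beside their results (Lgr5 and Lgr6 in papilla against sheath, Lgr6 in sheath against fibroblasts and in outer root sheath against matrix). Quantile normalization moved the median of all genes to -0.12 instead of 0.06 for papilla against matrix and to -0.09 instead of 0.07 for mesenchyme against epithelium. The causes of these changes were not tested. With 2 libraries per population, differences near 1 on the log2 scale rest on single libraries, and levels under 1 FPKM cannot be ranked.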
